A study of Mus musculus with 20 samples.

Results

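Sox9, Twist1, Twist2, Snai1, Snai2, Msx1, Msx2, Prrx1, Tfap2a and Pax3 are 10 transcription factor genes of the neural crest and of mesenchyme. They were chosen by name from the 24062 genes of a count table, and all 10 passed the filter on low counts, as did 17258 genes in all. The table holds RNA-seq read counts of 20 mouse nerve tumor libraries, all from strain C57BL/6J. GEM-PNST (4 libraries) stands for a peripheral nerve sheath tumor of genetically engineered mice. They and the paraspinal tumors (2 libraries of subgroup 2 and 2 of subgroup 1) carried the genotype Ink4a/Arf+/-; Nf1fl/fl; DhhCre, and the neurofibromas (12 libraries) carried Nf1fl/fl; DhhCre. DhhCre is a recombinase of the Schwann cell lineage. In every group floxed Nf1, a brake on RAS signaling, was thus meant to be deleted in that lineage. The neurofibromas lacked the disrupted Ink4a/Arf copy. No drug was given, and the labels give neither an age nor whether libraries are from separate animals, so p-values measure the spread between these samples. The codes of GEM-PNST library 2 and paraspinal subgroup 1 library 1 differ only in case and a final letter, and those of neurofibroma libraries 8 and 9 share a number; whether either pair shares an animal is not stated. The labels call the subgroups sub-clusters, which leaves it unclear whether expression itself defined them.

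The neural crest is a migratory cell population of the embryo that gives rise to Schwann cells, sensory neurons, melanocytes and much of the mesenchyme of the face. Its cells leave the neural tube by an epithelial to mesenchymal transition, in which the zinc finger repressors Snai1 and Snai2 and the bHLH factors Twist1 and Twist2 bind E-boxes and lower epithelial genes such as Cdh1. Pax3, Msx1, Msx2 and Tfap2a act early, at the border where the crest forms, Sox9 acts in the crest and in cartilage, and Prrx1 marks mesenchyme of the limbs and face.

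Total counts were 16282605 to 22218382 in GEM-PNST, 18474071 to 24314222 in paraspinal and 9900759 to 17594164 in neurofibroma libraries. Sequencing runs, read from alignment file names, divide the libraries as the genotype does: all GEM-PNST and paraspinal libraries share 1 run, and the neurofibromas came from another 2. Wherever neurofibroma is the reference, then, run, genotype and tumor type cannot be told apart. Nf1 itself had 26.1 ± 3.32 CPM in GEM-PNST, 63.7 ± 29.3 in paraspinal and 248 ± 19.6 in neurofibroma libraries (SD, n = 4, 4 and 12), and Cdkn2a, the Ink4a/Arf gene, had 5.72 ± 3.89, 19.9 ± 12.1 and 0.483 ± 0.4 CPM in the same order. CPM is the usual depth-scaled count, here divided by the library total and its TMM factor. Whole-gene counts also come from cells that lack the recombinase and are no check of either deletion.

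GEM-PNST libraries differed among themselves in cell type markers. The summed CPM of 14 fibroblast markers was 503 in library 1, where 6 of the 14 reached 1 CPM, and 10220 to 23860 in the other GEM-PNST libraries, against 6103 to 16730 in paraspinal and 1720 to 11030 in neurofibroma libraries. The 16 Schwann cell lineage markers summed to 174 to 1601 CPM in GEM-PNST, 9174 to 18790 in paraspinal and 4163 to 22280 in neurofibroma libraries. Salivary gland markers summed to 35410 CPM in GEM-PNST library 3, with 13 of 15 at 1 CPM or more, and to at most 86.2 CPM elsewhere. The 13 macrophage markers summed to 7113, 2134, 5544 and 7676 CPM across GEM-PNST libraries 1 to 4. Paraspinal libraries had 667 to 2605 CPM of these markers and neurofibroma libraries 157 to 2437 CPM. The ribosomal transcript Rn45s took 30.7% of the counts of GEM-PNST library 4 and 0.37% to 0.75% in the other GEM-PNST libraries, against 0.44% to 1.84% in paraspinal and 3.48% to 18.9% in neurofibroma libraries. In bulk tumor RNA, fewer cells of a type and less RNA per cell cannot be told apart. The part of these differences in the results below was not tested, except where values without a library are given.

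The promoters of the genes that were higher than in neurofibroma in both other tumor types are shown first, to set out the regulatory sequence beside which the counts stand. Twist1, Twist2, Snai1 and Msx1 have windows in the RefSeq table (GRCm38.p6), each from 250 bases before to 50 bases after the gene's start, 5′ to 3′ on the gene's strand. Capitals mark E-boxes, searched as CANNTG, which reads alike on both strands.
Twist1, chr12:33957421-33957720, plus strand: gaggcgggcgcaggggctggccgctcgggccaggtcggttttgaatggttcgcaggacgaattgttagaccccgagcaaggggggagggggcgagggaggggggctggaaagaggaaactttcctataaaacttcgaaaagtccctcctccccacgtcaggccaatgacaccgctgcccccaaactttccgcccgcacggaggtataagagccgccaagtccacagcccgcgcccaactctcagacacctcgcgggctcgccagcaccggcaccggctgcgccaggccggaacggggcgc
Twist2, chr1:91801211-91801510, plus strand: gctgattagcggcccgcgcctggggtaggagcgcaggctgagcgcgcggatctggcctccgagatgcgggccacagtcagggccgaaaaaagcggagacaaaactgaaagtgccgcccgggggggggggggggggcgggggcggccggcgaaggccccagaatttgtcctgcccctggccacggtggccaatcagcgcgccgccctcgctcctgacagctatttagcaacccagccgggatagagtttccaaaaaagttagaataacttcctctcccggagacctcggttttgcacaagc
Snai1, chr2:167537945-167538244, plus strand: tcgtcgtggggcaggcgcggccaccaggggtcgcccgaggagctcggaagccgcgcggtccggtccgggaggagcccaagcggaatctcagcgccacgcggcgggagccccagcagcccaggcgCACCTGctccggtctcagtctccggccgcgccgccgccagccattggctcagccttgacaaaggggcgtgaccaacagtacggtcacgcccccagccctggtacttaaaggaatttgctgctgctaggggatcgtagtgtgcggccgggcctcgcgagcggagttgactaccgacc
Msx1, chr5:37824536-37824835, minus strand: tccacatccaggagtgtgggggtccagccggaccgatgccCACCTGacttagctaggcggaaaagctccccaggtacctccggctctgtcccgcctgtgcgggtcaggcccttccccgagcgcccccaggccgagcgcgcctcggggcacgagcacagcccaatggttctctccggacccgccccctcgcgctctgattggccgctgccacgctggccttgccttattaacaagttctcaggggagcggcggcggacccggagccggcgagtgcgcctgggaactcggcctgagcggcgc

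Snai1 and Msx1 had 1 E-box each and Twist1 and Twist2 had 0. Both E-boxes were CAGGTG on 1 strand or the other, the core that SNAIL factors are known to bind. Of all 32851 windows in the table, 72.3% held an E-box and 20.2% held CAGGTG, searched on both strands and counted within the E-boxes too. The TATA box TATAAA was in the Twist1 window and in 13.6% of all windows. The GC box GGGCGG was in the Twist1, Twist2 and Msx1 windows and in 35.7% of all windows. The windows of these genes were 64.7% to 70% G and C, against a median of 52.7% over all windows. Msx2, Prrx1 and Tfap2a also have windows, so 7 of 10 genes matched. A match describes letters in a window and not a bound site.

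**Figure D1:**
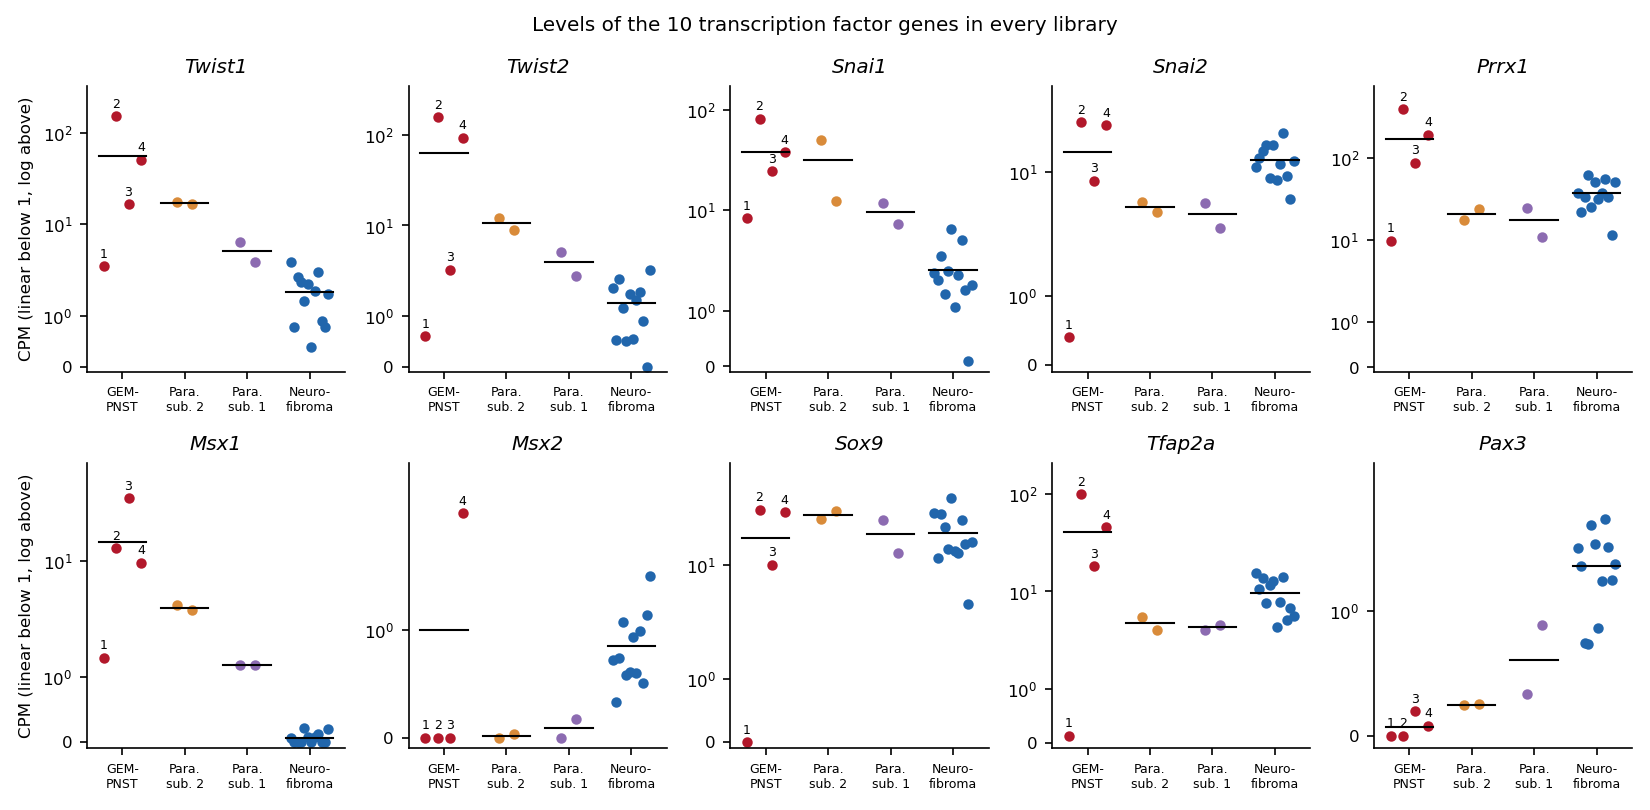
CPM of each gene (linear below 1, log above) in every GEM-PNST, paraspinal subgroup 2, paraspinal subgroup 1 and neurofibroma library, with the group mean as a line; small numbers name the GEM-PNST libraries. GEM-PNST library 1 is lowest of its group, or tied for lowest, in all 10 panels, and Msx1 lies at or below 0.218 CPM in all neurofibroma libraries.

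The same genotype label and run cover both GEM-PNST and paraspinal tumors, and between them none of the 10 genes passed an adjusted p of 0.05 by edgeR. Over all tested genes 2.73% were called higher and 7.43% lower in GEM-PNST. The log2 fold change was positive for 8 of the 10, with a median of 2.41 against 0.03 over all tested genes. An unadjusted p under 0.05 by edgeR was found for 4 of the 10 and for 5768 of the 17258 genes tested. The 10 genes spread widely over the GEM-PNST libraries, and GEM-PNST library 1 was the lowest for all 10. For Msx2 and Pax3 it was tied at 0 counts with other GEM-PNST libraries. The shares of all tested genes lowest in library 1 or highest in library 2 were not computed. Library 1 lay below every paraspinal library for 7 of the 10 genes and above for 0, where 41% and 34.4% of all tested genes did so. Library 2 was the highest GEM-PNST library for 7 genes and lay above every paraspinal library for 8, against 34.2% of all tested genes.

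Twist1, a bHLH factor of cranial mesenchyme, had 3.49, 151.1, 16.5 and 50.8 CPM across GEM-PNST libraries 1 to 4, against 17.3 and 16.6 CPM in paraspinal subgroup 2 and 6.39 and 3.85 CPM in subgroup 1. GEM-PNST libraries 2 and 4 were above all paraspinal libraries and library 1 was below them. The log2 fold change was 2.33 (SE 1.02, adjusted p = 0.149 by edgeR).

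Twist2, its close paralog in dermis, had 0.605, 156.4, 3.27 and 92.8 CPM across GEM-PNST libraries 1 to 4, against 12.2 and 8.98 CPM in subgroup 2 and 5.06 and 2.79 CPM in subgroup 1. Libraries 2 and 4 again stood above all paraspinal libraries, and the groups overlapped. The log2 difference came to 3.12 (SE 1.4, adjusted p = 0.156 by edgeR).

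Prrx1 had the lowest adjusted p of the 10 genes in this comparison. It had 9.68, 387.7, 86.5 and 190.8 CPM across GEM-PNST libraries 1 to 4, against 17.1 and 23.6 CPM in subgroup 2 and 24.0 and 10.7 CPM in subgroup 1. GEM-PNST libraries 2, 3 and 4 were above every paraspinal library, and library 1 was below all of them. The log2 fold change was 3.16 (SE 0.91, adjusted p = 0.0587 by edgeR).

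Tfap2a, an AP-2 factor of the neural plate border, showed the same order of GEM-PNST libraries, with 0.134, 99.3, 18.2 and 45.6 CPM in libraries 1 to 4. Paraspinal libraries had 5.5 and 3.99 CPM in subgroup 2 and 4.03 and 4.55 CPM in subgroup 1. The log2 difference came to 3.17 (SE 1.23, adjusted p = 0.115 by edgeR). Exons of Tfap2a overlap Gm47061, Gm26688 and Gm47067, and those of Twist2 overlap Gm29100; reads from these could be counted for either factor, since no source says whether strand was used.

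Snai2 had 0.403, 25.1, 8.46 and 23.7 CPM across GEM-PNST libraries 1 to 4, against 5.69 and 4.76 CPM in subgroup 2 and 5.6 and 3.54 CPM in subgroup 1, a log2 fold change of 1.56 (SE 0.92, adjusted p = 0.264 by edgeR). Snai1 had 8.4, 82.0, 24.7 and 38.2 CPM across GEM-PNST libraries 1 to 4, against 50.7 and 12.5 CPM in subgroup 2 and 11.9 and 7.25 CPM in subgroup 1. The paraspinal value of 50.7 CPM lay inside the GEM-PNST range, and the log2 fold change was 0.90 (SE 0.79, adjusted p = 0.45 by edgeR).

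Msx1, a homeodomain repressor downstream of BMP signals, had 1.48, 12.9, 34.7 and 9.73 CPM across GEM-PNST libraries 1 to 4, against 4.19 and 3.77 CPM in subgroup 2 and 1.29 and 1.28 CPM in subgroup 1. Unlike the genes above, it was highest in GEM-PNST library 3. The log2 difference came to 2.48 (SE 0.89, adjusted p = 0.0968 by edgeR). Msx2, its paralog, had 50 counts, 4.02 CPM, in GEM-PNST library 4 and 0 counts in libraries 1 to 3, against 0, 1, 0 and 4 counts in the paraspinal libraries. A log2 fold change of 4.07 (SE 2.21, adjusted p = 0.228 by edgeR) rests on library 4 and was -3.32 without it. Library 4 is also the one with the high Rn45s share, and whether that bears on Msx2 was not tested.

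Sox9 had 0, 30.6, 10.1 and 29.1 CPM across GEM-PNST libraries 1 to 4, against 25.6 and 29.7 CPM in subgroup 2 and 25.1 and 12.8 CPM in subgroup 1, so that library 1 had 0 counts and libraries 2 and 4 lay at the upper end of the paraspinal values. A count of 0 in library 1 allows up to 0.202 CPM, the level of 3 counts. Pax3 had 0, 0, 4 and 1 counts in GEM-PNST libraries 1 to 4, against 5, 7, 8 and 20 counts in the paraspinal libraries. All GEM-PNST libraries were below all paraspinal ones in Pax3, with a log2 fold change of -2.48 (SE 1.13, adjusted p = 0.163 by edgeR), where both groups were near the level of 3 counts.

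**Figure D2:**
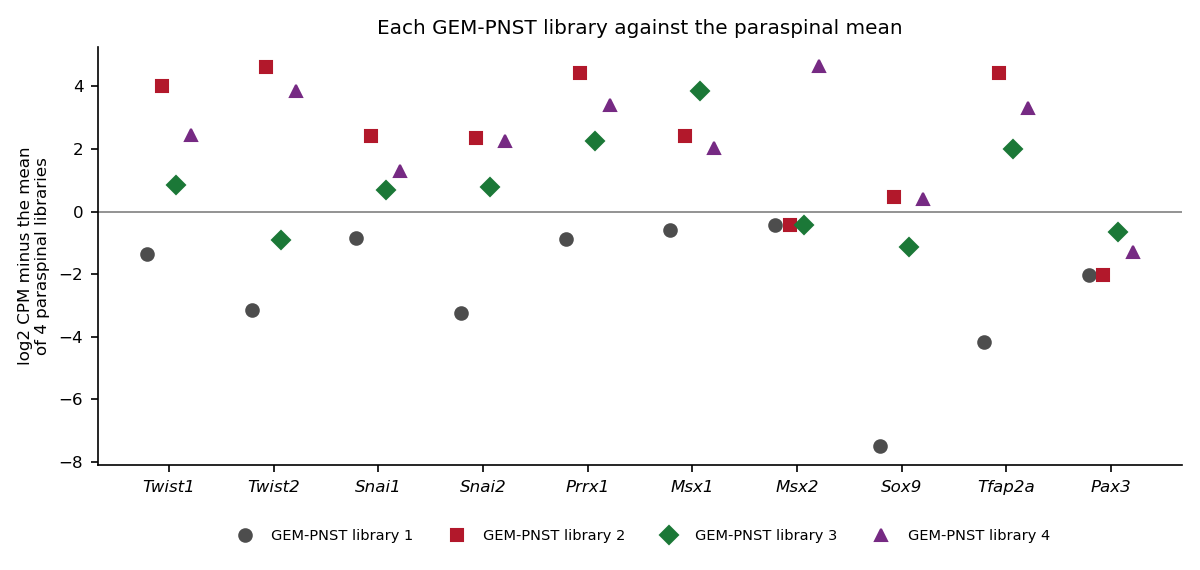
log2 CPM of each gene in each of the 4 GEM-PNST libraries minus the mean log2 CPM of the 4 paraspinal libraries, with 0 as the paraspinal mean. Library 1 is below 0 for all 10 genes, and library 2 is 4.42 above the paraspinal mean for Prrx1.

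Without GEM-PNST library 1, 4 of the 10 genes were called higher than in paraspinal libraries: Snai2 (log2 fold change 1.96, adjusted p = 0.0378), Msx1 (2.86, adjusted p = 0.039), Prrx1 (3.55, adjusted p = 0.0102) and Tfap2a (3.59, adjusted p = 0.00995), all by edgeR. Of the 17258 genes tested, 373 were called higher in that fit. Library 1 was the lowest GEM-PNST library for all 10 genes, so leaving it out raised the mean GEM-PNST CPM of each. Without GEM-PNST library 2, 3 or 4, 0 of the 10 were called higher, and without library 2 the log2 fold changes were 1.10 for Twist1, 2.15 for Twist2, 0.21 for Snai1, 2.34 for Prrx1 and 2.24 for Tfap2a. Without library 3 Msx1 had 1.61. Prrx1 was also called with a trend over exon length removed (adjusted p = 0.0321, or 0.0481 with the scaling kept). By DESeq2, with all libraries, 4 were called higher (Twist2, Msx1, Prrx1 and Tfap2a), as were 1988 of the 17258 genes tested. Library 1 is also the library with 503 CPM of fibroblast markers. The highest sum, 23860 CPM, was in library 3. That library had less Prrx1 (86.5 CPM) than libraries 2 and 4 (387.7 and 190.8 CPM), while Msx1 was highest in it. The part of fibroblast content was not tested.

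GEM-PNST and neurofibroma libraries differed in 7 of the 10 genes by edgeR, with 6 higher and 1 lower in GEM-PNST. Over all tested genes 34.9% were higher and 37.9% lower. The members' median log2 fold change was 2.13, against -0.15 over all tested genes. Twist1, Twist2, Snai1, Msx1, Prrx1 and Tfap2a rose, and Pax3 fell. Sox9, Snai2 and Msx2 had log2 fold changes of -0.13, 0.22 and 0.21 and did not pass.

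The bHLH genes were scarce in neurofibroma. Twist1 had 0.392 CPM in the lowest, 1.8 in the median and 3.83 in the highest neurofibroma library, so GEM-PNST library 1, with 3.49 CPM, lay within that range and the other GEM-PNST libraries lay above it. Its log2 CPM rose by 4.90 (SE 0.61, adjusted p = 2.07e-06 by edgeR). Twist2 had 0 to 3.22 CPM in neurofibroma libraries, with a median of 1.37, and GEM-PNST library 1 lay within that range. It rose by 5.50 (SE 0.86, adjusted p = 2.61e-05 by edgeR). With GEM-PNST library 2 left out the changes were 3.67 for Twist1 and 4.52 for Twist2, and both calls held.

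Of the 10 genes, Snai1, Msx1 and Pax3 did not overlap between these groups. The share of all tested genes without overlap was not computed, here or for the other comparisons. Snai1 had 0.0857 CPM in the lowest, 2.15 in the median and 6.48 in the highest neurofibroma library, all below the lowest GEM-PNST value of 8.4 CPM, and it rose by 3.92 (SE 0.57, adjusted p = 1.06e-05 by edgeR). Msx1 had between 0 and 3 counts in every neurofibroma library, at most 0.218 CPM, and rose by 7.71 (SE 0.73, adjusted p = 9.05e-08 by edgeR), the largest change of the 10 genes. Leaving out library 2 gave 3.23 for Snai1 and leaving out library 3 gave 6.83 for Msx1, both still called.

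Prrx1 rose by 2.18 (SE 0.51, adjusted p = 0.00108 by edgeR) over neurofibroma libraries with 11.4 CPM in the lowest, 34.9 in the median and 61.6 in the highest. GEM-PNST library 1, with 9.68 CPM, was below all of them, and with library 2 left out the change was 1.36 (adjusted p = 0.0269). Tfap2a rose by 2.08 (SE 0.66, adjusted p = 0.00935 by edgeR), a call lost without GEM-PNST library 2 (log2 fold change 1.14, adjusted p = 0.154) and against the neurofibromas of the first run alone (1.76, adjusted p = 0.118). Pax3, a paired-domain factor of early crest and muscle precursors, had 0.73 to 2.54 CPM in neurofibroma libraries, all above every GEM-PNST value, and fell by 4.29 (SE 0.72, adjusted p = 5.02e-05 by edgeR), or by 5.64 with library 3 left out. The 9 melanocyte markers summed to 27.8 to 65.2 CPM in GEM-PNST, 19.6 to 49.6 in paraspinal and 76.5 to 134.5 in neurofibroma libraries. Their sums were highest in neurofibroma libraries, as was mean Pax3. Between GEM-PNST and paraspinal libraries the median log2 fold change of the 5 markers tested was 0.42, with 0 called, against -2.48 for Pax3. Over all 9 markers, the mean log2 CPM was -1.52 to -0.97 in GEM-PNST and -1.16 to -0.64 in paraspinal libraries. The part of these markers was not tested.

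**Figure D3:**
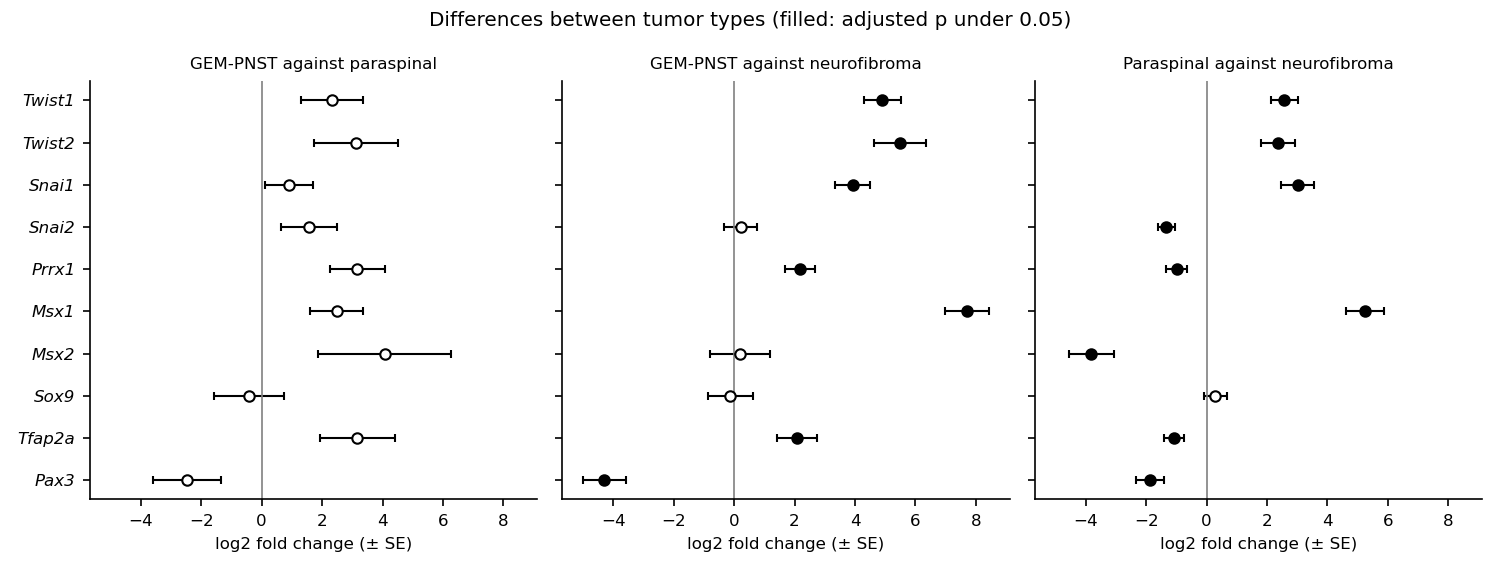
log2 fold change of each gene (± SE) in GEM-PNST against paraspinal, GEM-PNST against neurofibroma and paraspinal against neurofibroma; filled points passed an adjusted p of 0.05 by edgeR and open points did not. No point is filled in the first comparison, 7 are in the second and 9 in the third.

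Paraspinal and neurofibroma libraries differed in 9 of the 10 genes, with 4 higher and 5 lower in paraspinal. Over all tested genes 29.6% were higher and 29.1% lower. Twist1, Twist2, Snai1 and Msx1 rose, by 2.57 (SE 0.45), 2.37 (SE 0.57), 3.02 (SE 0.55) and 5.25 (SE 0.64). Without subgroup 2 library 1 Snai1 rose by 2.05. Snai2, Msx2, Prrx1, Tfap2a and Pax3 fell. The 2 comparisons share their neurofibroma libraries, so their agreement is not independent.

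Some genes did not overlap between paraspinal and neurofibroma libraries, and how many of all tested genes did so was not computed. For Twist1, the 3.85 CPM of the lowest paraspinal library lay above the 3.83 CPM of the highest neurofibroma library, by a margin far smaller than the spread within either group. Snai2 had 3.54 to 5.69 CPM in paraspinal libraries, all below the 6 CPM of the lowest neurofibroma library, and fell by 1.34 (SE 0.28, adjusted p = 5.91e-04 by edgeR), a call lost with all 20 libraries in 1 fit (0.0575). Msx2 had at most 0.177 CPM in paraspinal libraries against 0.329 to 1.91 CPM in neurofibroma libraries, and fell by 3.81 (SE 0.73, adjusted p = 2.59e-04 by edgeR), or by 5.31 with subgroup 1 library 2 left out. Tfap2a fell by 1.09 (SE 0.33, adjusted p = 0.00953 by edgeR), and that call was lost with either paraspinal subgroup alone (adjusted p = 0.0576 and 0.074 for subgroups 1 and 2), against the second neurofibroma run alone (0.124) and with all 20 libraries in 1 fit (0.219). The calls of Twist2 (0.13) and Pax3 (0.0544) were also lost with subgroup 1 alone. Pax3 fell by 1.87, or by 2.48 with subgroup 1 library 2 left out. Sox9, with 23.3 ± 7.3 CPM in paraspinal (SD, n = 4) and 19.1 ± 9.49 CPM in neurofibroma libraries (SD, n = 12), did not pass.

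Prrx1 fell by 0.98 (SE 0.35, adjusted p = 0.0229 by edgeR), with 10.7 to 24.0 CPM in paraspinal and 11.4 to 61.6 CPM in neurofibroma libraries. Differences between these groups moved with exon length: the median log2 fold change was 0.49 among the 5463 shortest of 16387 genes and -0.57 among the 5461 longest. Prrx1 is among the longest, with 11066 exon bases. With a trend over length removed from every library its log2 fold change was -0.11 (adjusted p = 0.809 by edgeR). With the trend removed and the scaling kept it was 0.04 (adjusted p = 0.94 by edgeR). The call was lost in both fits, and the sign changed only with the scaling kept. The Prrx1 call was also lost without subgroup 2 library 1 (adjusted p = 0.063) or subgroup 1 library 2 (0.0833), with subgroup 1 or 2 alone (0.0897 and 0.12), against the second neurofibroma run alone (0.0634) and with all 20 libraries in 1 fit (0.158). For GEM-PNST against neurofibroma the same medians were 0.75 and -0.91, and Prrx1 had a log2 fold change of 3.69 with the trend removed. Twist1, Snai1 and Snai2 are among the shortest.

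Between paraspinal subgroups no gene was called by edgeR (0% of tested genes higher and 0% lower), although 2008 genes had an unadjusted p under 0.05 and DESeq2 called 1222. Of the 10 genes, 0 had an unadjusted p under 0.05. Twist1 averaged 16.9 CPM in subgroup 2 and 5.12 CPM in subgroup 1, a log2 fold change of 1.72 (SE 1.4, adjusted p = 0.713 by edgeR). Msx1 averaged 3.98 CPM in subgroup 2 and 1.28 CPM in subgroup 1 (1.63, SE 1.17, adjusted p = 0.665 by edgeR). The GEM-PNST libraries entered this fit, so its SE and calls do not measure the spread between paraspinal libraries alone. For Sox9, Twist1, Twist2, Snai1 and Msx1 both subgroup 2 libraries lay above both subgroup 1 libraries. For Pax3 they lay below, and the other members overlapped. The share of all tested genes so separated was not computed.

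The balance of the SNAIL paralogs is shown by the ratio of Snai1 to Snai2 counts within a library, which scaling between libraries does not touch. Per exon base, Snai1 over Snai2 was 2.01 to 26 in GEM-PNST, 2.56 to 11.1 in paraspinal and 0.0178 to 0.487 in neurofibroma libraries. Snai1 was thus the more abundant of the pair in every GEM-PNST and paraspinal library and Snai2 in every neurofibroma library. In GEM-PNST library 1, which had the ratio of 26, Snai2 rests on 6 counts. Twist1 over Twist2 was 1.07 to 11.3 in GEM-PNST, 2.46 to 3.6 in paraspinal and 1.04 to 5.57 in the 11 neurofibroma libraries with Twist2 counts, and these ranges overlapped.

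**Figure D4:**
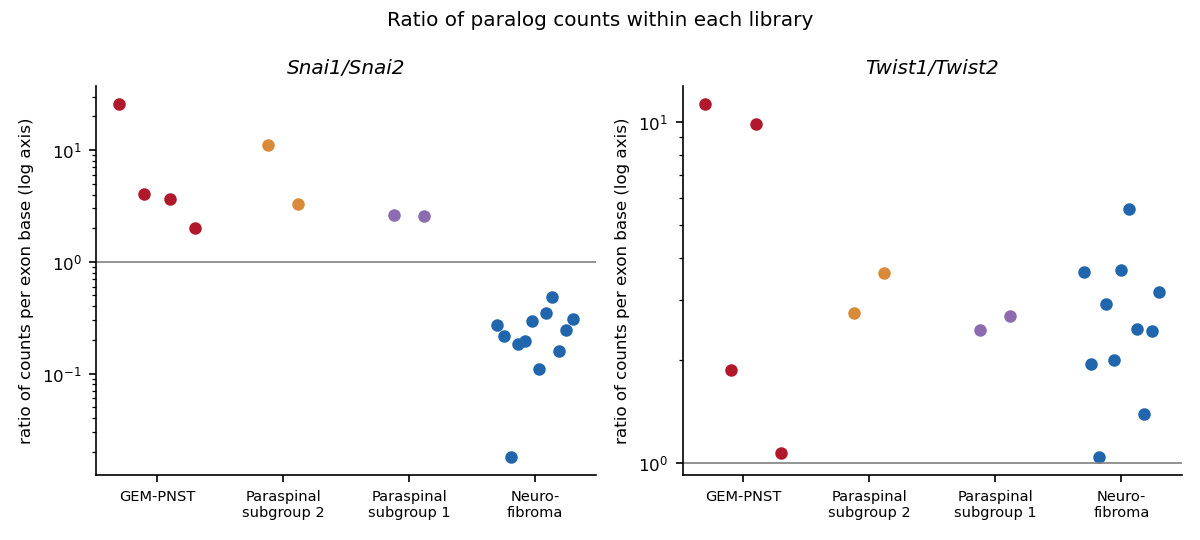
Ratio of Snai1 to Snai2 and of Twist1 to Twist2 counts per exon base (log axis) in each GEM-PNST, paraspinal and neurofibroma library; the line marks a ratio of 1. Neurofibroma libraries are all below 1 for Snai1 over Snai2, with a highest value of 0.487.

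Levels per kilobase of exon set genes side by side only roughly, because length here joins all annotated exons of a gene. For 5 of the 10 genes, the mean in GEM-PNST libraries was 34.1 CPM for Twist1, 23.7 for Snai1, 19.9 for Twist2, 7.14 for Snai2 and 4.22 for Sox9. Prrx1 (15.2), Tfap2a (8.32) and Msx1 (4.75) lay between these values, and Msx2 (0.307) and Pax3 (0.011) lay below. In paraspinal libraries the same scale gave 12.7 for Snai1, 6.77 for Twist1, 5.63 for Sox9, 2.42 for Snai2 and 2.29 for Twist2. In neurofibroma libraries it gave 6.12 for Snai2, 4.62 for Sox9, 1.56 for Snai1, 1.13 for Twist1 and 0.44 for Twist2. In GEM-PNST the SD exceeded the mean for Twist1 (66.8 and 55.5 CPM) and Twist2 (75.5 and 63.3 CPM). The order of these 5 genes was not tested.

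Of 24 other neural crest transcription factors tested, 0 were higher and 3 lower in GEM-PNST than in paraspinal libraries, against 2.73% and 7.43% of all tested genes, with a median log2 fold change of -0.98 (0.03 over all tested genes). Sox8, a SoxE factor of glia, fell by 6.95 (SE 1.46, adjusted p = 0.0256 by edgeR), and Zic1 and Zic2, zinc finger factors of the neural plate border, fell by 5.89 (SE 1.37) and 5.08 (SE 0.93). Of 28 other mesenchymal transcription factors 2 were higher and 1 lower: Klf4 rose by 2.54 (SE 0.54) and Runx1, a factor of blood and mesenchyme, by 1.46 (SE 0.32), and Foxs1 fell by 2.60 (SE 0.68). The Schwann cell lineage markers, of which 5 of 16 fell, moved with Sox8, and their part was not tested.

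Of 23 targets of the transition 2 were higher and 2 lower in that comparison, against the same 2.73% and 7.43% over all tested genes. Cdh1, the epithelial cadherin that SNAIL factors repress, had 4.75 ± 7.08 CPM in GEM-PNST and 81.9 ± 46 CPM in paraspinal libraries (SD, n = 4 each) and fell by 4.10 (SE 1.05, adjusted p = 0.0441 by edgeR). Ocln, a tight junction protein, fell by 3.14 (SE 0.7, adjusted p = 0.0312 by edgeR). Schwann cell lineage markers summed to 174 to 1601 CPM in GEM-PNST and 9174 to 18790 CPM in paraspinal libraries. Keratinocyte markers summed to 13.5 to 29.9 CPM and 17.6 to 39.1 CPM in the same order. The part of either cell type in the Cdh1 and Ocln differences was not tested. Krt8, an epithelial keratin, rose, with 1.34, 8.34, 10.1 and 716 CPM across GEM-PNST libraries 1 to 4 and 5 counts over the paraspinal libraries, so that most of its counts are from library 4. Its partner Krt18 rose too, with 178, 365, 13.4 and 85.5 CPM across the same libraries and 3 counts over the paraspinal ones, and the counts of both may hold reads shared with pseudogenes. Vim, the mesenchymal intermediate filament, had a log2 fold change of 1.24 (SE 0.59, adjusted p = 0.18 by edgeR).

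Among BMP signaling genes 0 of 23 were higher and 3 lower in GEM-PNST than in paraspinal libraries, where 2.73% and 7.43% of all tested genes did so. Smad9 fell by 6.76 (SE 0.87), and the ligands Bmp7 and Bmp5 by 5.95 (SE 1.31) and 4.45 (SE 1.06). Among 18 partners and cofactors of the bHLH and SNAIL factors 0 were higher and 2 lower. Scrt1 and Scrt2, SNAIL-family repressors of neurons, had 0 counts in all GEM-PNST libraries and were at least 452-fold and 456-fold lower than in paraspinal libraries, taking 3 counts over the group as the floor. Sensory neuron markers summed to 64.4 to 482 CPM in GEM-PNST and 4727 to 7605 CPM in paraspinal libraries, and their part in the Scrt1 and Scrt2 difference was not tested.

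Against neurofibroma, 8 of the 24 other neural crest factors were higher and 9 lower in GEM-PNST, and 13 of the 28 mesenchymal factors were higher and 3 lower, where 34.9% of all tested genes were higher and 37.9% lower. Prrx2, the paralog of Prrx1, rose by 4.73 (SE 0.78) and Tead2, a Hippo pathway factor, by 4.07 (SE 0.61). Tcf3, the E-protein that pairs with TWIST factors, rose by 3.34 (SE 0.27, adjusted p = 1.46e-08 by edgeR). Between paraspinal and neurofibroma libraries, 11 of the 24 neural crest factors were higher and 5 lower, and 10 of the 28 mesenchymal factors were higher and 4 lower, where 29.6% of all tested genes were higher and 29.1% lower. There Tcf3 rose by 2.16 (SE 0.22), Ctbp1, a corepressor, by 2.29 (SE 0.1) and Prrx2 by 3.10 (SE 0.51), while Zeb2, an E-box repressor, fell by 2.29 (SE 0.44).

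**Figure D5:**
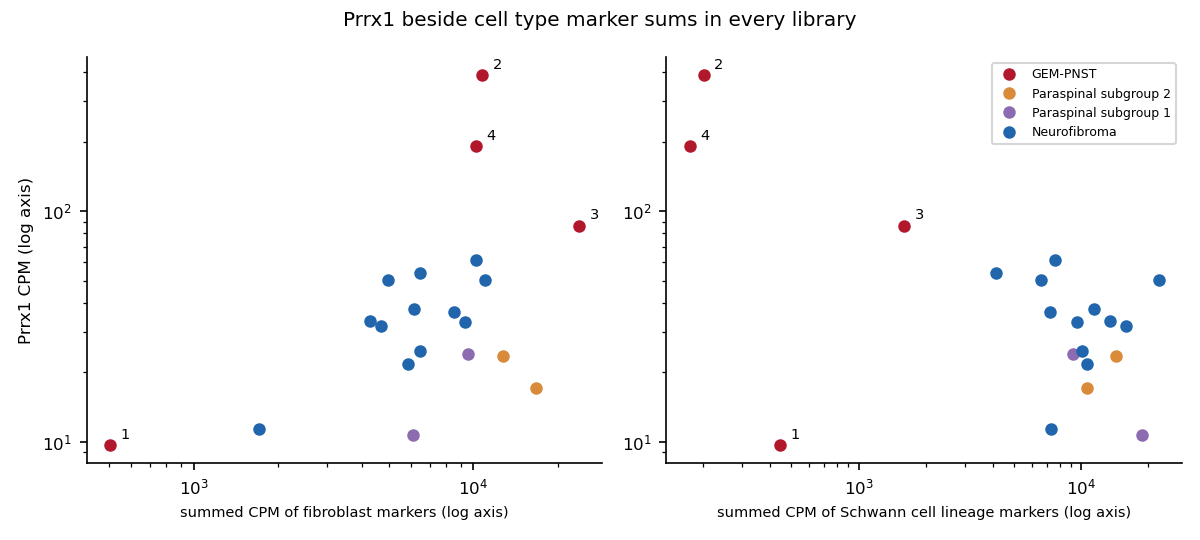
Prrx1 CPM beside the summed CPM of 14 fibroblast markers (left) and 16 Schwann cell lineage markers (right) in each library, all axes log; numbers name the GEM-PNST libraries. GEM-PNST library 1 is at the low end of fibroblast markers, with 503 CPM, and has the lowest Prrx1 value, 9.68 CPM. GEM-PNST library 3 has the highest fibroblast marker sum, 23860 CPM, with 86.5 CPM of Prrx1.

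The genes whose pattern over the 8 GEM-PNST and paraspinal libraries was most like each of the 10 were found by the root mean square difference of log2 CPM, each gene centred on its mean. For Twist1 these were Cd93 (0.236), Efna4 (0.387) and Cyr61 (0.403), for Snai2 Igsf10 (0.293), Gli3 (0.37) and Ghr (0.377), and for Prrx1 Npnt (0.453), Slc16a10 (0.564) and Rin1 (0.612). For Msx2 they were Lars2 (0.791), Rn45s (0.8) and Dgkk (0.942). Among the 10 genes themselves, Prrx1 and Twist1 were the closest pair, at 0.728.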

How the data were processed

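The values deposited by the authors are raw read counts for each gene in 20 libraries. The build mm10 and the tools TopHat, HISAT2 and featureCounts are listed, with no version or role, per the submitters' processing notes. Libraries were prepared with the Nextera XT kit, per the labels' protocols. Annotation and strandedness are not given in the sources used here. Columns were matched to samples by the labels' names.

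The quasi-likelihood F test of edgeR 4.0.16 (R 4.3.3) was applied to counts, with TMM factors over all 20 libraries, 17258 of 24062 genes passing edgeR's expression filter, and Benjamini-Hochberg adjustment over them at a threshold of 0.05. GEM-PNST libraries entered the fit between subgroups to share their spread. Log2 CPM use a prior count of 2. Alternatives were RLE factors, no filter, a filter of 1 CPM in 4 libraries, DESeq2 1.42.0, all 20 libraries in 1 fit, each subgroup or neurofibroma run alone, a block for replicate number, and libraries left out in turn. A trend over exon length was removed as an alternative chosen after seeing the data, and a second version, which keeps the TMM scaling, was added after the values of the first were seen.

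The 10 genes and the 16 gene lists were chosen with earlier results of these data known. Named were all 10 genes, the targeted genes, list members with the largest changes past the threshold (up to 4 per list and comparison) and the 3 genes most like each member; a selection was printed, and Vim was chosen after its values were seen. Floors cover counting error only. The tests were tried on simulated data. No pair of libraries within groups, of 74, looked like a duplicate (chi-square over degrees of freedom at least 22.8). Gene positions and lengths come from GENCODE (GRCm38), and 16387 of the tested genes had a length.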

Additional observations from a re-analysis of the deposited data

Results flagged for a closer look

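Gaps within groups of 4 libraries were examined for the 10 genes, in 20 groups. For normally distributed values chance alone is expected to flag about 1 in 20. CPM are not such values, so the number of flags cannot be set against that rate. In 3 of the 20 groups 1 library stood apart from the others. Msx2 was at 4.02 CPM in GEM-PNST library 4 and at 0 counts in the other GEM-PNST libraries, where any count in library 4 would be flagged. Snai1 was at 50.7 CPM in paraspinal subgroup 2 library 1, against 12.5 CPM or less in the other paraspinal libraries. Pax3 was at 0.884 CPM in paraspinal subgroup 1 library 2, against 0.332 CPM or less in the other paraspinal libraries.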

How the results depend on the processing

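Of 620 values of single genes under alternatives, 551 kept their direction and side of the threshold. Against paraspinal libraries, 1755 genes were called in GEM-PNST (472 higher) and 0 of the 10 members. The count was 4771 by DESeq2 (1988 higher, 4 members), 7196 with all 20 libraries in 1 fit (3886 higher; 6 members higher and 1 lower), 949 with the replicate block, 1139 and 89 against subgroup 1 or 2 alone, and 2953 with a length trend removed (1695 higher, 1 member, Prrx1), which also moved the median of all genes to 0.45. With the trend removed and the scaling kept, 1830 were called (566 higher), again with 1 member, Prrx1 (adjusted p = 0.0481). Leaving out 1 library gave 516 (without subgroup 1 library 2) to 2454 (without GEM-PNST library 3) genes, 552 without subgroup 1 library 1, 765 and 1058 when library 2 or 1 of subgroup 2 was dropped, 745 when GEM-PNST library 4 was dropped, and 0 to 4 members higher. The causes were not tested.

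Against neurofibroma, RLE factors moved the median of all genes from -0.15 to -0.31 in GEM-PNST and from -0.03 to -0.20 in paraspinal libraries, and left the counts of members called as they were. Numbers shared between groups are not known to pair the samples (r of -0.05 to 0.12 for GEM-PNST and neurofibroma). With the replicate block 7328 genes were called for GEM-PNST (2 members higher, 0 lower) and 2806 for paraspinal (1 higher, 2 lower). In GEM-PNST 1 to 2 members were lower with 1 library left out. In paraspinal 2 members were lower with all 20 libraries in 1 fit or with subgroup 1 alone, and 3 with subgroup 2 or the second neurofibroma run alone. Between subgroups, DESeq2 and the fit of all 20 libraries each called 1222 genes (509 and 491 higher).

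Directions turned as follows, none past the threshold but 1. For GEM-PNST against paraspinal, Msx2 was -3.24 with the block and -3.32 to 5.67 with 1 library left out. For GEM-PNST against neurofibroma, Snai2 was -0.66 with the block, -0.16 with the length trend removed and -0.30 with the scaling kept; Msx2 was -3.04 with the block, -0.053 against the second run and -0.0091 with the length trend removed and the scaling kept, and -6.63 once GEM-PNST library 4 was dropped (adjusted p = 1.2e-05). With 1 library left out Snai2 was -0.19 to 0.63 (negative without library 2 or 4), Msx2 -6.63 to 0.63 and Sox9 -0.55 to 0.28 (positive without library 1 or 3); Sox9 was 0.27 against the second run. For paraspinal against neurofibroma, Sox9 was -0.015 with subgroup 1 alone and -0.028 against the first run, and Prrx1 was 0.037 with the length trend removed and the scaling kept. Between subgroups, Prrx1 was -0.052 with the block and -0.24 to 0.93 with 1 library left out; Tfap2a was -0.10 to 0.36 with 1 left out; Snai2 was -0.10 to 0.56 with 1 left out, -0.35 with the length trend removed and -0.29 with the scaling kept; Msx2 was -3.84 to 2.05 with 1 left out. Levels near 3 counts, as for Pax3 and Msx2, limit those genes.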
